A study of Mus musculus with 4 samples.

Results

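Hca-P, a mouse hepatocarcinoma line with lower lymphatic metastasis ability, was compared with H22, the line from which it derives and which has no such ability. Both are untreated suspension lines, and the study profiled them together with Hca-F, a further derivative of H22 with higher ability, and Hepa1-6, an adherent line with none. Total RNA of each line was hybridised to 1 miRCURY array of Exiqon, on which short probes containing locked nucleic acids capture mature miRNAs. The miRNAs compared were those with a mouse name and a background-subtracted intensity of 50 or more in Hca-P or in H22, which gave 98 of the 414 mouse miRNAs on the array (99 of 417 probe positions, since miR-744 was read by 2 probes). The other 316 lay under 50 in both lines and were not compared. Per the labels, Hca-P cells were grown in the abdominal cavity of mice of strain 615, enriched from ascites and then cultured. The same text gives no separate account of how H22 was grown.

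Values are levels, meaning normalized intensities in which 1 is the median over the 65 probes the authors scaled by. These are the mouse and miRPlus probes (the maker's own sequences) at 50 or more on all 4 arrays. Errors given as ± are SDs over the 4 spots of 1 array. With 1 array per line (n = 1) there is no replicate check and no test, the number of arrays limits the precision, and spots are not replicates of a line. An intensity under 50 was set to 50 before scaling, and a fold from such a value is written as "at least". The exception is miR-103, whose only measured level lay under the floor of the other line, so that no fold is given. In units of level this floor was 0.136 on the H22 array and 0.126 on the Hca-P array. The brightest empty position reached 3 units in H22 and 2 in Hca-P. Over probes at 50 or more on all arrays, the deviation of each spot from the mean of its probe had r = 0.172 for H22 with Hca-P, against 0.714 for H22 with Hepa1-6 and 0.721 for Hca-P with Hca-F (285 probes, a description across spots). The comparison therefore runs across the pairs of arrays that share spot deviations, and an effect of those pairs and a difference between the lines cannot be told apart.

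The lines were checked against miRNAs that mark cell types. miR-122, the defining miRNA of hepatocytes, was under the detection minimum in both lines, at 22.2 units in H22 and 19.2 in Hca-P, and of 6 hepatocyte miRNAs miR-22 alone was measured. The erythroid miRNAs (3 of 3) and endothelial miRNAs (2 of 2) lay at 14 units or less in both lines. Of 6 leukocyte miRNAs, miR-142-5p alone reached the minimum, at 59.2 units in Hca-P and 4.25 in H22. Its partner miR-142-3p was at 32 and 8.75 units, miR-223 at 13.2 and 7.75, and miR-155 at 12.5 and 43.8. The summed level of the leukocyte list was 0.351 in Hca-P and 0.232 in H22, and its part in the results was not tested. In RNA of a whole culture, fewer cells of a type and less RNA per cell cannot be told apart.

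miRNAs are short RNAs that guide Argonaute proteins to messenger RNAs and lower their translation or stability. Target choice rests mostly on the seed, bases 2 to 8 from the 5′ end, so miRNAs that share a seed share many targets, and miRNAs encoded close together are often cut from 1 transcript. In tumours the let-7 family is known for restraining growth genes such as RAS and HMGA2, and the miR-17-92 cluster for promoting growth under the control of MYC. Mature sequences of 77 of the 98 miRNAs were found in RefSeq (build GRCm38.p6), 26 under the exact name and 51 through the arm for which the older name stood. In the sequences printed here, 5′ to 3′, capitals mark the seed.

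The first set shows the let-7 family, the largest group of compared miRNAs with 1 seed (GAGGUAG), whose members are told apart by few bases outside it.
let-7a: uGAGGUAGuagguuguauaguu
let-7b: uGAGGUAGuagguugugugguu
let-7c: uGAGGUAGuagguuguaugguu
let-7d: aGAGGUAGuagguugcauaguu
let-7e: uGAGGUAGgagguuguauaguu
let-7i: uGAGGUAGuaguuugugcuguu
miR-98: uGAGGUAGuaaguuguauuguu
Counted from the 5′ end, with the base of let-7a first, let-7c differs from let-7a by A19G, let-7e by U9G, let-7b by A17G and A19G, let-7d by U1A and U16C, and miR-98 by G11A and A19U. let-7i differs at 4 positions (G12U, A17G, U18C and A19U).

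The second set shows the miR-17-92 cluster and its paralogs, which hold 3 seeds: AAAGUGC in the first 4, AAGGUGC in miR-18a and GUGCAAA in miR-19b.
miR-17: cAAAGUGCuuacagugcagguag
miR-20a: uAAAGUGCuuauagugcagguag
miR-106b: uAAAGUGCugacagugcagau
miR-93: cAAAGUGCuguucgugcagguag
miR-18a: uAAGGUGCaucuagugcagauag
miR-19b: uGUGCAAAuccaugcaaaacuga
miR-17, miR-18a, miR-20a and a copy of miR-19b lie on the plus strand of chr14:115043684-115044380, and miR-93 and miR-106b on the minus strand of chr5:138165574-138165807, within the span of Mcm7.

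The third set shows miRNAs from among the largest differences in either direction, which share no seed with each other.
miR-762: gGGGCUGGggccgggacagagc
miR-763: cCAGCUGGgaagaaccaguggc
miR-705: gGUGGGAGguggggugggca
miR-129-5p: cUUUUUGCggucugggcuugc
miR-697: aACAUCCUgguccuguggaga
miR-207: gCUUCUCCuggcucuccucccuc
miR-138: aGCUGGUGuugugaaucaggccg
miR-671-5p: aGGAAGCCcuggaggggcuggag
miR-762 lies on the plus strand at chr7:127708534-127708555 within the span of Bcl7c, miR-763 on the minus strand at chr10:120448052-120448073 within that of Hmga2, and miR-705 on the minus strand at chr6:85336341-85336360 within that of Rab11fip5. miR-697 lies on the plus strand at chr4:124731768-124731788 within the span of Sf3a3, miR-207 on the plus strand at chr4:40722968-40722990 within that of Dnaja1, and miR-671-5p on the plus strand at chr5:24592132-24592154 within that of Chpf2. Whether exon or intron was not analysed here. miR-129-5p and miR-138 each have 2 loci.

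More of the compared miRNAs were lower in Hca-P than higher. Of the 98, 15 were 2-fold or more higher (15.3%), 34 were 2-fold or more lower (34.7%), 35 had folds between 1.2 and 2 and 14 had folds under 1.2 (14.3%). Bounds make up 9 of the 35 and 5 of the 14, and these may lie further apart than their computed fold. The log2 differences ran from -5.27 to 3.38, with a median of -0.62. Levels were measured in both lines for 64 miRNAs, in H22 alone for 23 and in Hca-P alone for 11. Lower bounds make up 6 of the 15 higher and 14 of the 34 lower miRNAs. The spots of the lines did not overlap in 44 of the 49 miRNAs that were 2-fold apart, nor in 23 of the other 49, together 68.4% of all compared. By the stricter mark of more than 2 combined spot SDs, 38 of the 49 stood apart (38.8% of all compared), 11 higher (11.2%) and 27 lower (27.6%). Spot overlap and this mark use levels before flooring, so for bounds they rest partly on values under the detection minimum.

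**Figure D1:**
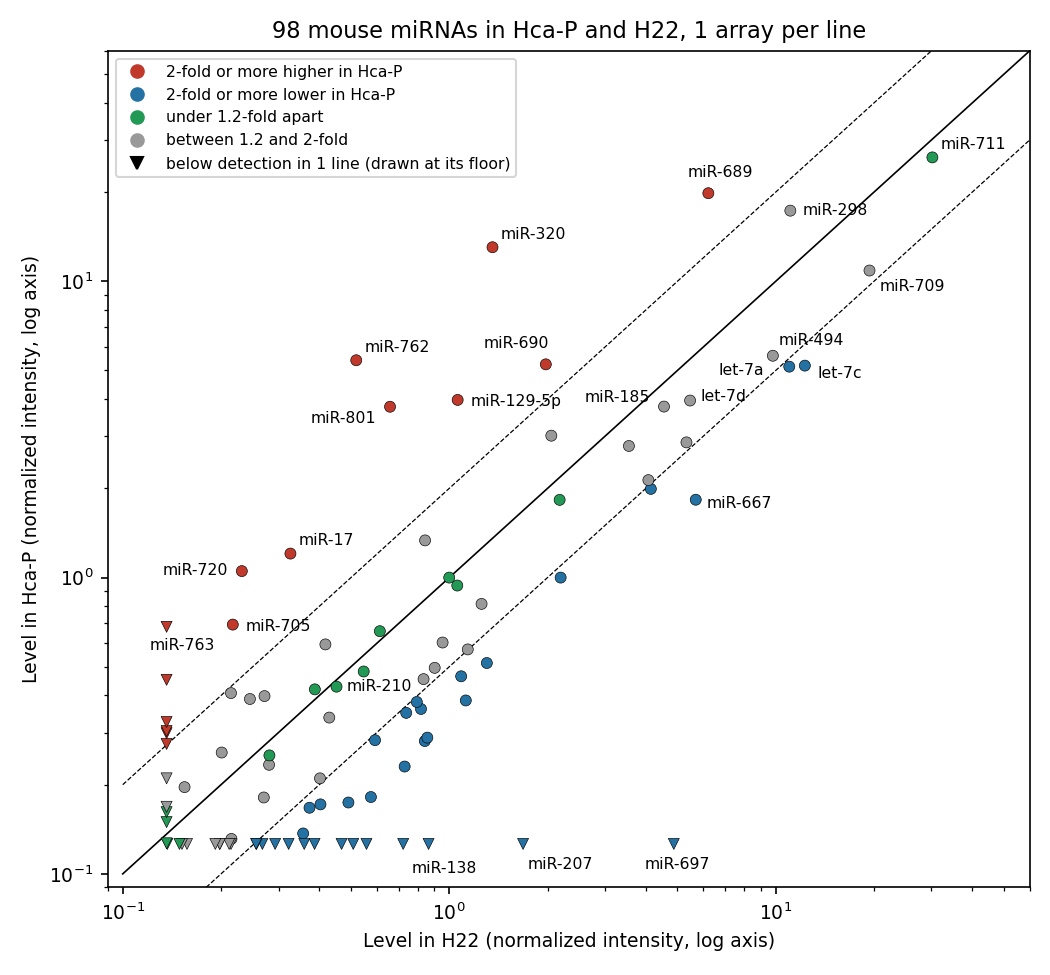
Each point is 1 of 98 miRNAs, with its level in H22 (x axis) and in Hca-P (y axis) as normalized intensity on log axes. The solid line marks equal levels and the dashed lines 2-fold. Triangles are miRNAs below detection in 1 line, drawn at its floor. 15 miRNAs lie above the upper dashed line and 34 below the lower one.

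The split into higher and lower moved with the scaling. With the authors' factor 15 miRNAs were higher and 34 lower. Quantile normalization gave 21 and 19, the 75th percentile of the mouse probes 23 and 16, unscaled intensities 16 and 26, and a factor from all capture probes 16 and 19. Over these alternatives the median of the 98 became -0.033, -0.12, -0.50 and -0.32 in that order. Of the 414 mouse miRNAs, 87 reached the detection minimum in H22 and 75 in Hca-P. The 75th percentile of the mouse probes therefore lay under that minimum on both arrays, whereas the authors' 65 scaling probes all reached it. Calls lost under the 75th percentile thus rest on a scale set below detection. Differences of single miRNAs stand beside -0.62, the median of all, and higher miRNAs outnumbered lower ones under quantile normalization and under the 75th percentile. By contrast, 22 miRNAs stayed 2-fold apart in the same direction under each of the 13 alternatives that gave them a value, 10 higher and 12 lower in Hca-P. The other 27, 5 higher and 22 lower, were under 2-fold in at least 1 alternative. The 22 are shown spot by spot.

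**Figure D2:**
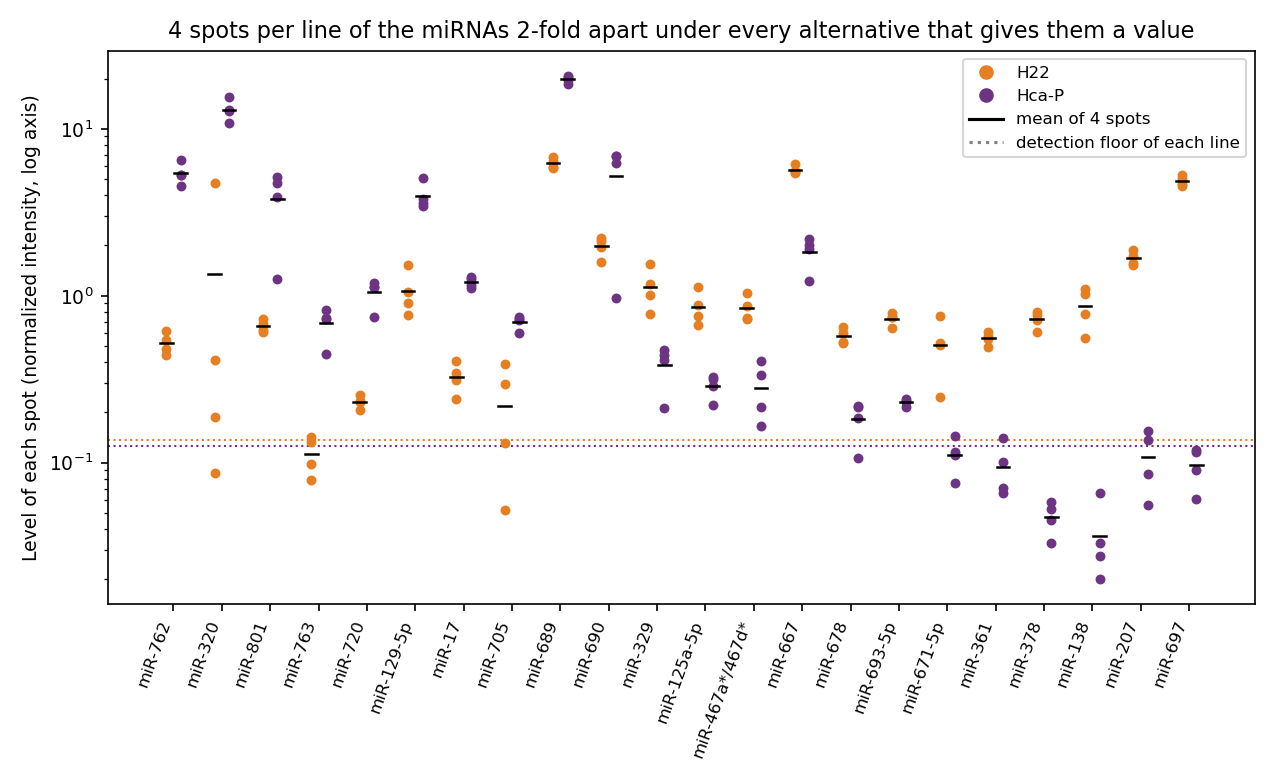
Level of each of 4 spots (normalized intensity, log axis) in H22 and Hca-P for the 22 miRNAs that were 2-fold apart under every alternative giving them a value. Horizontal bars are means of 4 spots and dotted lines the detection floors. The spots of the lines overlap in miR-690 alone, where 1 Hca-P spot at 0.972 lies below all H22 spots.

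**Figure D3:**
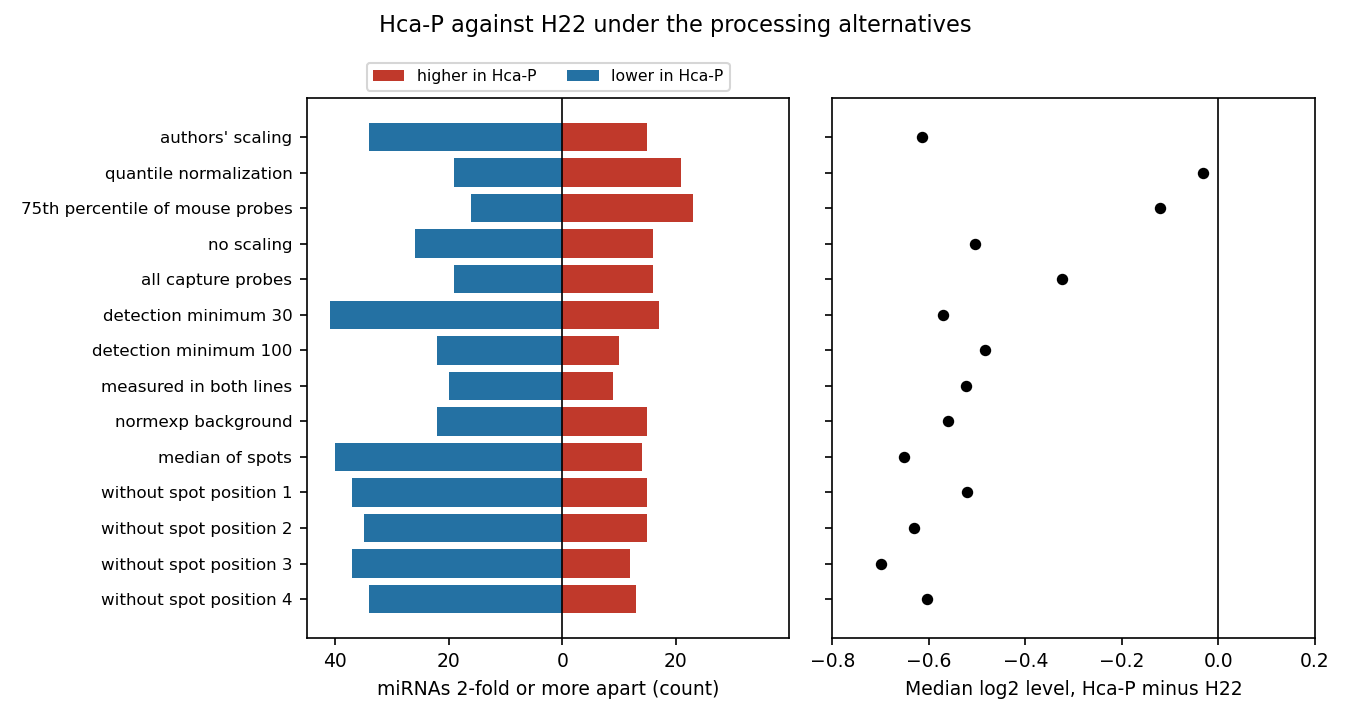
Counts of miRNAs 2-fold or more higher and lower in Hca-P than in H22 (left) and the median log2 difference over the compared miRNAs (right) under the authors' scaling and 13 alternatives. Higher miRNAs were most numerous with the 75th percentile (23, beside 16 lower), and lower ones with a detection minimum of 30 (41, beside 17 higher).

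Among the higher miRNAs, miR-762 had the largest fold. Its 4 spots read 5.32, 4.57, 5.28 and 6.49 in Hca-P and 0.482, 0.439, 0.542 and 0.613 in H22. The lowest Hca-P spot was well above the highest H22 spot, and the means differed 10.4-fold (5.41 ± 0.794 against 0.519 ± 0.0757). The log2 difference of 3.38 was 3.08 to 3.88 over the alternatives and varied by an SD of 0.0745 when taken spot by spot. Hca-F read 3.51 and Hepa1-6 read 1.00, so both lay between the compared lines.

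miR-320, known for being made without the nuclear enzyme Drosha, read 10.8, 12.99, 12.8 and 15.5 in Hca-P. In H22 the spots read 4.74, 0.414, 0.188 and 0.0872. No H22 spot reached an Hca-P spot, but 1 of the 4 H22 spots set the mean, so the size of the difference is poorly fixed. It was 3.26 on the log2 scale from the means (13.03 ± 1.93 against 1.36 ± 2.26), 5.83 without the first spot position and 2.75 to 2.98 without any other. The call of 2-fold held in each case.

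miR-763, whose locus lies within Hmga2, read 0.449, 0.727, 0.732 and 0.820 in Hca-P and was below the minimum in H22, at least 5.01-fold higher. miR-129-5p, a miRNA best known from neurons, read 5.04, 3.47, 3.80 and 3.60 in Hca-P against 0.768, 0.902, 1.05 and 1.52 in H22, 3.75-fold higher. These spots did not overlap either. The H22 spots of miR-705 were uneven, at 0.0518, 0.131, 0.294 and 0.392, against 0.714, 0.598, 0.742 and 0.722 in Hca-P. The fold of 3.19 for miR-705 thus compares a tight set with a wide one, and the log2 difference ran from 1.21 to 2.43 over the alternatives. miR-706 and miR-370 were at least 2.23-fold and 2.19-fold higher, and miR-222, reported to promote growth by lowering the cell-cycle inhibitor p27, at least 2.01-fold. With a detection minimum of 100, the bounds of these 3 miRNAs and those of miR-18a and miR-805 were under 2-fold. The first Hca-P spot lay within the H22 spots for miR-370 (0.0353) and below all of them for miR-222 (0.0454).

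A group of probes carries miRNA names for RNAs of which several are known as pieces of other RNAs. Of 8 listed, 6 were compared, 5 were 2-fold or more higher in Hca-P and none lower, against 15.3% and 34.7% of all compared, and their median log2 difference was 1.70 (1.54 to 2.20 over the alternatives). miR-720, known as a tRNA fragment, read 0.750, 1.13, 1.13 and 1.196 in Hca-P and 0.234, 0.253, 0.207 and 0.232 in H22, 4.54-fold higher. miR-801, known as a piece of the spliceosomal U11 RNA, read 1.27, 5.17, 3.92 and 4.73 against 0.725, 0.681, 0.621 and 0.608, 5.73-fold higher. miR-805, known as a mitochondrial RNA piece, was at least 3.32-fold higher, a bound whose log2 value of 1.73 became 0.73 with the minimum of 100. miR-689 had the tightest spots of the group, 18.5, 19.7, 20.4 and 20.7 in Hca-P against 5.87, 5.80, 6.39 and 6.82 in H22, 3.19-fold higher. miR-690 was 2.65-fold higher by its mean, but its first Hca-P spot read 0.972 and the other 3 read 6.27 to 6.89, and its log2 difference was 1.68 without that position. miR-709 was the exception, with 10.9 ± 1.53 in Hca-P against 19.4 ± 7.29 in H22, within 2 combined spot SDs. The differences of miR-801 and miR-690 also lay within 2 combined spot SDs. The origin of miR-689, miR-690 and miR-709 was not looked into here. Beside this group, the brighter probe of U6, a spliceosomal RNA and no miRNA, had a level of 4.60 ± 0.420 on the Hca-P array against 1.12 ± 0.225 on that of H22, a fold of 4.11. Among probes for other small RNAs, the log2 difference was 2.04 for this U6 probe, 0.00254 for hsa_SNORD3@ and -1.13, a bound, for hsa_SNORD2. The part of these RNAs in the result was not tested.

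The 4 compared miRNAs of the miR-17-92 cluster were all at higher levels in Hca-P, 2 of them by 2-fold or more. miR-17 read 1.26, 1.12, 1.16 and 1.29 in Hca-P and 0.343, 0.313, 0.240 and 0.409 in H22, 3.69-fold higher with no overlap. miR-18a read 0.338, 0.318, 0.262 and 0.384 in Hca-P and was below the minimum in H22, at least 2.39-fold higher (log2 1.26, and 0.26 with a detection minimum of 100). miR-20a, which shares the seed of miR-17, differed by 1.90-fold (0.408 ± 0.103 against 0.215 ± 0.0645), just short of 2-fold, and miR-19b was measured in Hca-P alone with a bound of 1.19-fold. All 4 log2 differences of this locus were above 0 with the authors' scaling (1.88, 1.26, 0.93 and 0.25). The last, of miR-19b, ran from -0.045 to 0.98 over the alternatives and was below 0 in 2 of 11. The paralogous locus on chromosome 5 did not follow in the same way. miR-106b had a level of 0.398 ± 0.0536 in Hca-P against 0.272 ± 0.0840 in H22, a log2 difference of 0.55, and its neighbour miR-93 had -0.58 with overlapping spots. Over 6 compared members of 12 on the array, 2 were 2-fold higher and none lower, against 15.3% and 34.7% of all compared, with a median of 0.74 (0.47 to 1.40 over the alternatives) beside -0.62 for all. Quantile normalization and the 75th percentile gave 4 higher, and a detection minimum of 100 gave 1 of 4 compared.

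Among the lower miRNAs, the largest differences were losses below the detection minimum. miR-697 read 4.53, 4.67, 4.97 and 5.32 in H22 and 0.0606, 0.119, 0.116 and 0.0909 in Hca-P, all under the floor, and was at least 38.6-fold lower. miR-207 read 1.53, 1.74, 1.89 and 1.58 in H22 and 0.0858, 0.0555, 0.154 and 0.136 in Hca-P, lower by at least 13.3-fold. No role of either is described here. miR-138, a miRNA enriched in neurons that limits dendritic spine growth in the rat, read 0.777, 1.02, 0.556 and 1.10 in H22 and at most 0.0656 in Hca-P, lower by at least 6.85-fold. miR-378, encoded within the gene of the metabolic coactivator PGC-1β, was at least 5.73-fold lower, and miR-361 at least 4.42-fold. miR-671-5p, known to guide cleavage of the circular RNA Cdr1as, was at least 4.03-fold lower, with H22 spots from 0.248 to 0.760. By levels before flooring, the lines lay within 2 combined spot SDs for miR-671-5p and beyond them for the other 5. miR-23b (at least 3.71-fold), miR-490 (3.07-fold), miR-761 (2.85-fold) and miR-338-5p (2.55-fold) were lower as bounds as well. Of these, miR-761 alone lay within 2 combined spot SDs.

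Of miRNAs measured in both lines, 20 were 2-fold or more lower in Hca-P. miR-667 was the brightest of the group with folds over 3, reading 5.61, 5.51, 5.46 and 6.17 in H22 and 1.22, 1.91, 2.01 and 2.19 in Hca-P, 3.11-fold lower. miR-693-5p (0.230 ± 0.0110 against 0.730 ± 0.0658) and miR-678 (0.182 ± 0.0530 against 0.576 ± 0.0594) were both 3.17-fold lower, and their spots did not overlap. The locus of miR-693-5p lies within the span of Xpo5, the gene of the exportin that carries miRNA precursors out of the nucleus. miR-125a-5p read 0.755, 0.665, 0.875 and 1.13 in H22 and 0.222, 0.288, 0.328 and 0.315 in Hca-P, 2.97-fold lower. miR-713, miR-340-5p, miR-184 and miR-183* were 2.82-fold, 2.35-fold, 2.19-fold and 2.08-fold lower. The last is the lesser strand of the miR-183 precursor. miR-22, of the hepatocyte list, was 2.11-fold lower (0.350 ± 0.0268 against 0.738 ± 0.125).

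let-7 miRNAs were among the brightest of H22, and 6 of the 7 compared had a log2 difference below 0. Most of all 98 compared miRNAs did so too under the authors' scaling (median -0.62). let-7c read 11.96, 11.9, 11.6 and 13.7 in H22 and 5.18, 5.87, 4.77 and 4.94 in Hca-P, 2.37-fold lower. let-7a read 10.1, 9.95, 12.3 and 11.7 against 5.21, 5.71, 4.63 and 5.05, 2.14-fold lower. In both, every H22 spot exceeded every Hca-P spot. let-7i (1.99-fold) and let-7b (1.86-fold) were lower without reaching 2-fold, let-7d had a log2 difference of -0.47 with spots that did not overlap, and let-7e had 0.11 with wide overlap. let-7d and let-7a, neighbours on chromosome 13 (minus strand of chr13:48536078-48538260), were lower by 1.38-fold and 2.14-fold. In the other lines let-7a stood at 0.475 in Hca-F and 0.396 in Hepa1-6, far below both compared lines. miR-98 was measured in H22 alone, near the floor. Of 7 compared members of 9, 2 were 2-fold lower and none higher, against 34.7% and 15.3%, and the median was -0.90 (-1.13 to -0.40 over the alternatives) beside -0.62 for all. Under quantile normalization the median was -0.79 beside -0.033 for all, with let-7c at -1.54 and let-7a at -1.10. Under the 75th percentile it was -0.40 beside -0.12, and no member was 2-fold lower.

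**Figure D4:**
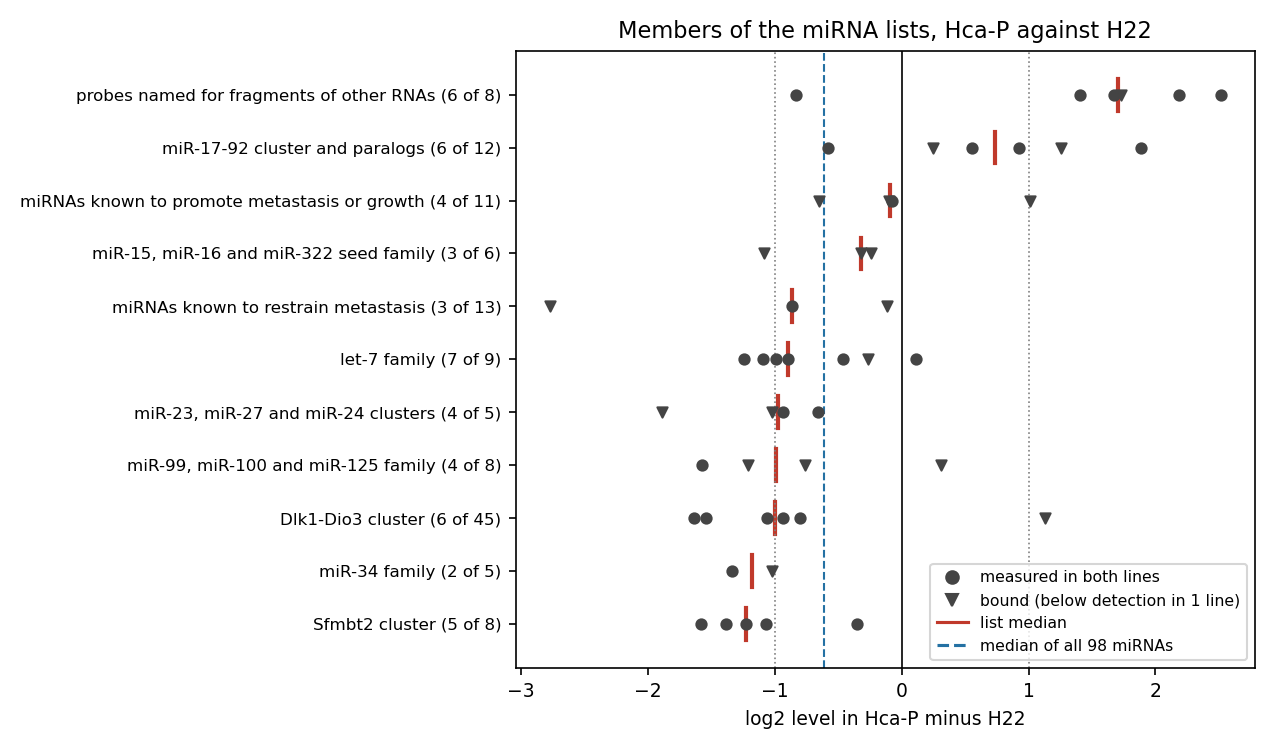
Log2 level in Hca-P minus H22 for the compared members of the 11 miRNA lists with 2 or more compared, cell type lists left out (circles measured in both lines, triangles bounds), with the median of each list in red and that of all 98 miRNAs as a dashed blue line. Numbers in brackets are members compared of those on the array. The probes named for fragments and the miR-17-92 cluster have medians of 1.70 and 0.74, the other 9 lists drawn medians of -0.09 or less under the authors' scaling.

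Other groups that share a seed or a locus were lower in most members, as were most of all compared miRNAs under the authors' scaling. The median of all was -0.62, and -0.033 under quantile normalization. In the seed group CCCUGAG, related to the developmental timing miRNA lin-4 of the worm, miR-125a-5p, miR-125b-5p and miR-351 had log2 differences of -1.57, -1.21 and -0.27, the second a bound. In the same locus on chromosome 17 as miR-125a-5p, let-7e lay at 0.11 and miR-99b* was at least 1.70-fold lower, a bound. Of the families of miR-99, miR-100 and miR-125 together, 4 of 8 on the array were compared, 2 were 2-fold lower and none higher (34.7% and 15.3% of all compared). Their median of -0.99 is the midpoint of the bounds of miR-125b-5p and miR-99b*. Under quantile normalization and the 75th percentile miR-125a-5p alone was 2-fold lower, and the medians were -0.39 and -0.50. miR-125b-3p was measured in Hca-P alone, at 0.168 ± 0.164.

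In the miR-23, miR-27 and miR-24 clusters, 4 of 5 miRNAs were compared, 2 were 2-fold lower and none higher (34.7% and 15.3% of all compared), and the median was -0.98. Both called members, miR-23b and miR-27b (at least 2.03-fold), are bounds. The spots of miR-27b overlapped, with an H22 spot at 0.0572 below all Hca-P spots, and its difference lay within 2 combined spot SDs. miR-27b had -0.53 under the 75th percentile and -0.39 under quantile normalization, and with a detection minimum of 100 no member was 2-fold lower. miR-23a had a level of 0.604 ± 0.0933 in Hca-P against 0.954 ± 0.233 in H22, and miR-24 at 0.210 ± 0.0496 against 0.402 ± 0.217, both within 2 combined spot SDs. In the miR-34 family, known as targets of the tumour suppressor p53, miR-34a was 2.53-fold lower (0.515 ± 0.0570 against 1.304 ± 0.165) and miR-34c at least 2.04-fold. Both members compared, of 5, were thus called (34.7% of all compared were lower), with a median of -1.18, but 1 was under quantile normalization and none under the 75th percentile (medians -0.77 and -0.69). A second probe of miR-34c was under the minimum in both lines.

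The Sfmbt2 cluster, a rodent group of repeated miRNAs in an imprinted gene, had 4 of 5 compared members 2-fold lower, beside 34.7% of all compared miRNAs, and a median of -1.23 (-1.41 to -0.61 over the alternatives). Under quantile normalization and under the 75th percentile 1 of the 5, the shared probe of miR-467a* and miR-467d*, was 2-fold lower (-1.10 and -1.09). With the authors' scaling that probe read 0.281 ± 0.109 in Hca-P against 0.842 ± 0.146 in H22, and miR-467b* read 0.464 ± 0.0574 against 1.09 ± 0.189. miR-669a was 2.10-fold lower within 2 combined spot SDs, and the probe named miR-466d-3p_MM1, whose suffix the files do not explain, 2.61-fold. miR-669c had -0.35 with spots from 0.169 to 0.883 in H22. In the Dlk1-Dio3 cluster, another imprinted region, 6 of 45 were compared, 3 were 2-fold lower (miR-667, miR-329 and miR-770-3p) and 1 higher (miR-370, a bound), beside 34.7% and 15.3% of all compared. miR-770-3p had -1.06, but -0.42 under quantile normalization and -0.57 under the 75th percentile. miR-329 was 2.92-fold lower (0.385 ± 0.118 against 1.12 ± 0.323). miR-494 and miR-668 were at 5.61 ± 1.32 and 2.13 ± 0.579 in Hca-P against 9.80 ± 2.37 and 4.07 ± 1.07 in H22, both within 2 combined spot SDs, and the median of the 6 was -1.0.

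miR-16, miR-195 and miR-322, which share the seed AGCAGCA and restrain the cell cycle, were measured in H22 alone. Their bounds were 2.12-fold, 1.25-fold and 1.18-fold lower, and the median of -0.32 was between -1.02 and 0.18 over the alternatives, above 0 in 1 of them. Of the miR-26, miR-29 and miR-30 families miR-26a alone was compared (1 of 9), with H22 spots split between low and high (SD 0.199 on a mean of 0.198). Among 11 miRNAs known to promote growth or metastasis, 4 were compared, with miR-21 lower by at least 1.57-fold, miR-222 higher as above, miR-103 at the edge of detection and miR-210 level. Of these 4 values 3 are bounds. That of miR-103 after flooring (-0.10) has the opposite sign of its measured levels, 0.127 in Hca-P and 0.0504 in H22, so the median of -0.09 gives no direction. Among 13 known to restrain metastasis, 3 were compared: miR-138 as above, miR-206 at 0.496 ± 0.0171 against 0.903 ± 0.295, and miR-31, a bound of 1.09-fold. Of these 3, 1 was 2-fold lower and none higher, against 34.7% and 15.3% of all compared. Their median of -0.86 is the value of miR-206, which lay within 2 combined spot SDs. The median was -0.24 under quantile normalization and -0.37 under the 75th percentile. Of the muscle list 2 of 4 were compared, and they differed in direction. miR-1 had a level of 3.01 ± 1.23 in Hca-P against 2.05 ± 0.339 in H22 with overlapping spots. miR-206, given above, was 1.82-fold lower in Hca-P, within 2 combined spot SDs. miR-133a and miR-133b were under the minimum. Of the mesenchymal list miR-214 alone was compared, at least 1.52-fold lower in Hca-P. The neuronal list had 2 of 4 compared, miR-129-5p higher and miR-138 lower.

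14 miRNAs (14.3%) were under 1.2-fold apart under the authors' scaling, and 9 of them were measured in both lines. The brightest was miR-711, which lies within the span of Col7a1, at 31.9, 25.0, 31.9 and 32.0 in H22 and 21.98, 28.4, 26.2 and 28.1 in Hca-P. It was the brightest mouse miRNA of both arrays, with a fold of 1.15 and overlapping spots. miR-210, the best known miRNA of the hypoxia response, read 0.469, 0.395, 0.463 and 0.480 in H22 and 0.394, 0.361, 0.449 and 0.510 in Hca-P, 1.05-fold apart. miR-7a was itself the median reference probe of both arrays, so the scaling sets it to 1 in each, and its log2 difference was 0.39 under quantile normalization and 0.49 under the 75th percentile. In Hca-P against H22, miR-193 (0.659 ± 0.104 against 0.613 ± 0.0386), miR-130a (0.482 ± 0.145 against 0.547 ± 0.173) and miR-877 (0.251 ± 0.0444 against 0.281 ± 0.0604) were level too under the authors' scaling. miR-691 and miR-695 had folds of 1.19 and 1.13, and let-7e 1.08 with an Hca-P SD of 0.297 on a mean of 0.420. The remaining 5 have a level near the floor in 1 line and lie below it in the other (miR-31, miR-103, miR-322, miR-19b and miR-142-5p), for which equal levels were not shown. Under the 75th percentile scaling 17 miRNAs were under 1.2-fold apart, and which ones they are moves with the scaling, as the median does.

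At the threshold itself, miR-222 (2.01-fold), miR-27b (2.03-fold), miR-34c (2.04-fold) and miR-183* (2.08-fold) lay just inside, and let-7i (1.99-fold), miR-24 (1.91-fold), miR-668 (1.91-fold) and miR-20a (1.90-fold) just outside. At the detection minimum, miR-103 and miR-31 (50.2 units in their brighter line) and miR-322 (54.8) lay just inside, and miR-27a (49.5), miR-500 (49.2) and miR-181b (49) just outside.

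Spot spread differed little between the arrays but had a pattern by position. The median coefficient of variation over the 4 spots was 19.7% in H22 and 19.4% in Hca-P, over compared miRNAs measured in that line. In Hca-P the first spot position read lower than the mean of the others, by a median log2 of -0.35 over 35 bright probes, and in H22 the second did, by -0.25 over 47. Single low spots at the first position of Hca-P stand out in miR-801, miR-690, miR-370, miR-222, miR-185 and miR-468. Without it, the log2 differences of miR-185 and miR-468 went from -0.27 and -0.62 to -0.01 and -0.34, and those of miR-801 and miR-370 from 2.52 and 1.13 to 2.78 and 1.43. None of these changed sign. The 2 probes of miR-744 disagreed in direction: the brighter read 1.42-fold higher in Hca-P (0.595 ± 0.0783 against 0.418 ± 0.0822) and the other 2.72-fold lower (0.187 ± 0.0412 against 0.509 ± 0.0409). The second probe of miR-298, under the minimum in both lines, does not bear out its partner, which read 17.3 ± 3.03 in Hca-P and 11.1 ± 2.78 in H22.

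The other lines show where these differences stand, as values only, since the comparisons share arrays. Of the 15 miRNAs higher in Hca-P, Hca-F lay nearer to Hca-P in 12 and nearer to H22 in 3, and Hepa1-6 lay nearer to H22 in 13. Of the 34 lower, Hca-F lay nearer to Hca-P in 19 and nearer to H22 in 15, and Hepa1-6 in 16 and 18. Intensities under 50 were set to 50 here too. Hca-F was under 50 in 2 of the 15 and 10 of the 34, and Hepa1-6 in 4 and 8. Hca-P with Hca-F and H22 with Hepa1-6 are also the pairs of arrays that share spot deviations (r = 0.721 and 0.714). Nearness of lines and of arrays cannot be told apart, and the share over all 98 was not computed. miR-129-5p was at 3.98 in Hca-P against 3.96 in Hca-F, and miR-705 at 0.694 and 0.714, so these pairs did not differ beyond a spot SD of Hca-P. miR-17, at 1.21 in Hca-P, read 0.515 in Hca-F and was under the minimum in Hepa1-6. miR-184 and miR-183*, lower in Hca-P, read 2.05 and 4.03 in Hca-F, close to their levels of 2.19 and 4.15 in H22.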

How the data were processed

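Per the labels, the RNA was a TRIzol extract carrying the Hy3 dye, and miRCURY arrays were read on a GenePix scanner, 1 array per line. The authors deposited linear intensity values: foreground and background-subtracted intensity of every spot and probe, and a normalized intensity, the probe mean divided by 1 factor per array (367 for H22, 396.25 for Hca-P). The deposited probe values equalled the mean of 4 spots, and levels recomputed from the spots equalled the deposited ones. The table holds 2448 probe positions.

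Names read by 2 probes kept the brighter over the 4 arrays. Folds, spot SDs and counts were computed in Python 3.11.15 and the normexp alternative (offset 50) in limma 3.58.1. The code was tested on simulated data. With 1 array per line no test was run. miRNAs were named by a written rule: largest folds and bounds in each direction, brightest, under 1.2-fold, nearest to the thresholds, members of 12 miRNA lists and 7 cell type lists, and probes whose spot SD exceeded 50% of the mean. A few others complete a sentence. Members and lists were chosen with earlier results of these data known. Older miRNA names without an arm were matched to the arm they stood for, from general knowledge. Alternatives covered scaling, detection minimum, background, spot summary and fold threshold. Leaving out each spot position was chosen after seeing the data.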

Additional observations from a re-analysis of the deposited data

Results flagged for a closer look

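Signal lay outside the mouse miRNAs as well. Of 1595 probes marked as not designed for mouse, 316 reached 50 units in Hca-P or H22, and 17.4% of these were 2-fold or more higher and 24.7% lower in Hca-P. Of 77 miRPlus probes (the maker's own sequences), 17 did, with 47.1% higher and 11.8% lower, and of 109 probes marked as obsolete 22 did, with 27.3% higher and 4.55% lower. Among probes for other small RNAs, U6-snRNA-2 had a log2 difference of 2.04 (Hca-P minus H22), hsa_SNORD2 of -1.13, a bound, and hsa_SNORD3@ of 0.00254. The other U6 probe was under the minimum in both lines. None of these probes is among the 98 compared miRNAs, and of them U6-snRNA-2, hsa_SNORD2 and hsa_SNORD3@ alone are given as values above. The 65 scaling probes were drawn from mouse and miRPlus probes together. The factor from all capture probes and the 285 probes behind the spot deviations drew also on probes not designed for mouse and obsolete ones. The cause of the signal was not tested for any probe outside the mouse miRNAs.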

How the results depend on the processing

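With the authors' scaling 15 miRNAs were higher, 34 lower and 14 under 1.2-fold apart, with a median log2 difference of -0.62. Lower miRNAs numbered 19 after quantile normalization (median -0.033), 16 with the 75th percentile of mouse probes (23 higher, median -0.12), 19 with all capture probes setting the factor (median -0.32), 22 with a detection minimum of 100, 22 with normexp and 11 at a 3-fold threshold. Over miRNAs measured in both lines there were 9 higher, 20 lower and 9 under 1.2-fold, since fewer were compared. Without spot position 3, 8 were under 1.2-fold. Scaling by another factor per array shifts every log2 difference by the same amount. The counts under the 75th percentile, which lay under the detection minimum on both arrays, and under all capture probes moved with that shift. The cause was not tested for quantile normalization and normexp. In the 13 alternatives that give differences, no called miRNA turned its direction. Of 1210 values of single miRNAs, 266 moved by more than their spot-by-spot SD, and of 212 list medians 76 did. No paired analysis was possible because each line has 1 array. Signal over background limits 34 of the 98 miRNAs to bounds: 23 not measured in Hca-P and 11 not in H22.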
